A study of Mus musculus with 2 samples.

Results

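Open chromatin around the genes of bone morphogenetic protein (BMP) signalling was examined in the embryonic mouse heart. The set held 10 genes chosen by name, 6 ligands (*Bmp2*, *Bmp4*, *Bmp5*, *Bmp6*, *Bmp7*, *Bmp10*), the type I receptor *Bmpr1a*, the type II receptor *Bmpr2* and the inhibitory SMADs *Smad6* and *Smad7*, out of 21938 protein-coding genes of GENCODE M21 on GRCm38 (mm10). Every annotated transcription start of these genes was taken with 1 kb on each side, and every gene body with 100 kb on each side. These windows held 239 of the 98850 regions of chromosomes 1 to 19, X and Y that were called as peaks in both replicates.

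BMP ligands are secreted dimers that bind pairs of type I and type II serine/threonine kinase receptors, and the activated receptors phosphorylate SMAD1, SMAD5 and SMAD9, which enter the nucleus with SMAD4. SMAD6 and SMAD7 block this step and are themselves induced by the pathway, as a negative feedback. In the developing heart the pathway is known for its part in cardiac specification, in the formation of the endocardial cushions from which valves and septa arise, in outflow tract septation and, through BMP10, in the growth of trabecular myocardium.

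ATAC-seq, in which a transposase inserts sequencing adapters into accessible DNA, was performed on microdissected hearts of wildtype FVB embryos at E11.5 (49 to 51 somites). Each of the 2 replicates came from a pair of hearts and about 50000 nuclei, and both belong to 1 group, so no condition was compared with another. Whole hearts were used, and a weak region cannot be assigned to few cells or to low accessibility in many cells, since these cannot be told apart in bulk tissue. Replicate 1 had 118027 peaks and replicate 2 had 114783, of which 81.0% and 82.8% overlapped a peak of the other replicate, and the read totals behind the peak lists are unknown.

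A shared region is the part of a replicate 1 peak that a replicate 2 peak covers. Its fold enrichment is the ratio that the authors' peak caller gave at the summit, over a background that the methods describe as genome-wide, and was assigned only where the summit of the peak lies inside the region. Both replicates had their summit inside for 199 of the 239 regions, and for 88.0% of all shared regions. The ratio of replicate 2 to replicate 1 had an SD of 0.27 (log2) over regions within 1 kb of a start and 0.35 over distal regions, which lie over 1 kb from every annotated start of any gene. A region was called higher than another only where both replicates gave that order and the ratio of the means exceeded this SD. The distal regions of a gene are listed by their means, and this listing is not such a call. The first exceeded the second by this rule at 5 of the 10 genes (*Bmp2*, *Bmp5*, *Bmp10*, *Bmpr2* and *Smad6*), and the second exceeded the third at 1 (*Bmpr2*).

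To show the regulatory sequence behind the distal values, the 200 bases around the replicate 1 summit of the distal region with the highest mean outside exons are given for 9 of the 10 genes. That of *Smad7* is not shown here. They were read from the plus strand of GRCm38, 5′ to 3′, and capitals mark matches on either strand to the letters of a GATA motif (AGATAA), a T-box motif (AGGTGT), a TEAD motif (CATTCC), an NKX motif (CAAGTG) or a SMAD box (CAGAC). The *Bmp10* sequence holds 2 GATA matches and 1 T-box match, a combination found in 0.193% of all 74141 distal regions, and the *Smad6* sequence holds 4 SMAD boxes and a TEAD match, where 0.606% of all distal regions have 4 or more SMAD boxes. These combinations were picked after the sequences were seen, and a match to letters is not a binding site.
Bmp2 upstream chr2:133499010-133499209: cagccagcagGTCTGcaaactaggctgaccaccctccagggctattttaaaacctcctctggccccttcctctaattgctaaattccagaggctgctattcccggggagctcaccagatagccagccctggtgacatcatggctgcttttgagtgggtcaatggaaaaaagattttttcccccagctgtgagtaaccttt
Bmp4 upstream chr14:46418440-46418639: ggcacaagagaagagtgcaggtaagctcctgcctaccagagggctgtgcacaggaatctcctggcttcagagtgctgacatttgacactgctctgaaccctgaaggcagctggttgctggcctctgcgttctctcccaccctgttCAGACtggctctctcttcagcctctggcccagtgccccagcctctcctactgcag
Bmp5 downstream chr9:75980202-75980401: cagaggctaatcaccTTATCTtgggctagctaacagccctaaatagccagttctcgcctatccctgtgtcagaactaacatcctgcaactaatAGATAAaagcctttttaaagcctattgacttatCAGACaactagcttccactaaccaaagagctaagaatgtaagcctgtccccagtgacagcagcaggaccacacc
Bmp6 downstream chr13:38580035-38580234: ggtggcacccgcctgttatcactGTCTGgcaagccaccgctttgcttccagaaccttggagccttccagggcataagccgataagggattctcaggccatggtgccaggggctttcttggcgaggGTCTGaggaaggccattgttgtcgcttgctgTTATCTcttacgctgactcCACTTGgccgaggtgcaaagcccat
Bmp7 upstream chr2:172983043-172983242: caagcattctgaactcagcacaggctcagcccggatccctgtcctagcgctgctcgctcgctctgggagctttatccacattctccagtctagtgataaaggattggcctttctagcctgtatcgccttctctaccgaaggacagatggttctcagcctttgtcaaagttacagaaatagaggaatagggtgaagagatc
Bmp10 upstream chr6:87424130-87424329: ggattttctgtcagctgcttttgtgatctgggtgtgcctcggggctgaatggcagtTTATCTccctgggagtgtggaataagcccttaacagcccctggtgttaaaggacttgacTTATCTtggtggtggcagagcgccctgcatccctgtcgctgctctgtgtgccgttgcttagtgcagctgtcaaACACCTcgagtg
Bmpr1a upstream, in Ldb3 chr14:34574123-34574322: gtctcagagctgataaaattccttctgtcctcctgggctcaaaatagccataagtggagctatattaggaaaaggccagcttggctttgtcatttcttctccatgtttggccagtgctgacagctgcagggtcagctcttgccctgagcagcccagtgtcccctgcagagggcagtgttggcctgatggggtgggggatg
Bmpr2 intron chr1:59833824-59834023: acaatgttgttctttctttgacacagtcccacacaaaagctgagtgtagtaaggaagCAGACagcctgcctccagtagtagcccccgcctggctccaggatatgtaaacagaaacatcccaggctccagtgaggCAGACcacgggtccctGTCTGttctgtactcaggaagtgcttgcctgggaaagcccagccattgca
Smad6 upstream chr9:64045236-64045435: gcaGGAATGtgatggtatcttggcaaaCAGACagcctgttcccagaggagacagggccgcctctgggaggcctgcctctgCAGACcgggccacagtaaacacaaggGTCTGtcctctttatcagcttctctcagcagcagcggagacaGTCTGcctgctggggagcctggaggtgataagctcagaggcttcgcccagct

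All 10 genes had a shared region at 1 or more of their starts, beside 67.6% of all protein-coding genes. Among their distinct annotated starts, 23 of 28 had a shared region, beside 58.0% of all starts of protein-coding genes. The starts without one were all downstream of a first start that was open. They were the second start of *Bmp5* (chr9:75828022), the third of *Bmp6* (chr13:38394445), the fourth of *Bmpr1a* (chr14:34460556) and the second and the third of *Bmpr2* (chr1:59850665 and chr1:59851477).

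The start regions differed widely in height. *Smad6*, *Bmpr1a* and *Bmpr2* were highest, with mean fold enrichments of 32.9, 32.6 and 28.0, and were the 3 genes above the median of 24.6 over the 14707 protein-coding genes with a value (middle 50% of genes, 14.4 to 33.6). *Bmp2*, *Smad7*, *Bmp4*, *Bmp7* and *Bmp6* followed with means from 22.0 down to 17.3. *Bmp5* and *Bmp10* were lowest at 5.79 and 4.32, the 5.29th and 1.46th percentile of those genes.

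In the order of the 10 means, 3 of the 9 steps between neighbours exceeded the SD between replicates over start regions (0.27). The step from *Bmpr2* to *Bmp2* was 0.35 on the log2 scale, the step from *Bmp6* to *Bmp5* 1.58 and the step from *Bmp5* to *Bmp10* 0.42, each with the same order in both replicates. At the *Bmp5* start itself, replicate 2 over replicate 1 was -0.64 (log2), larger in size than its step to *Bmp10*. The other neighbours, such as *Smad6* and *Bmpr1a* (0.01) or *Bmp4* and *Bmp7* (0.04), did not differ beyond this SD.

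**Figure D1:**
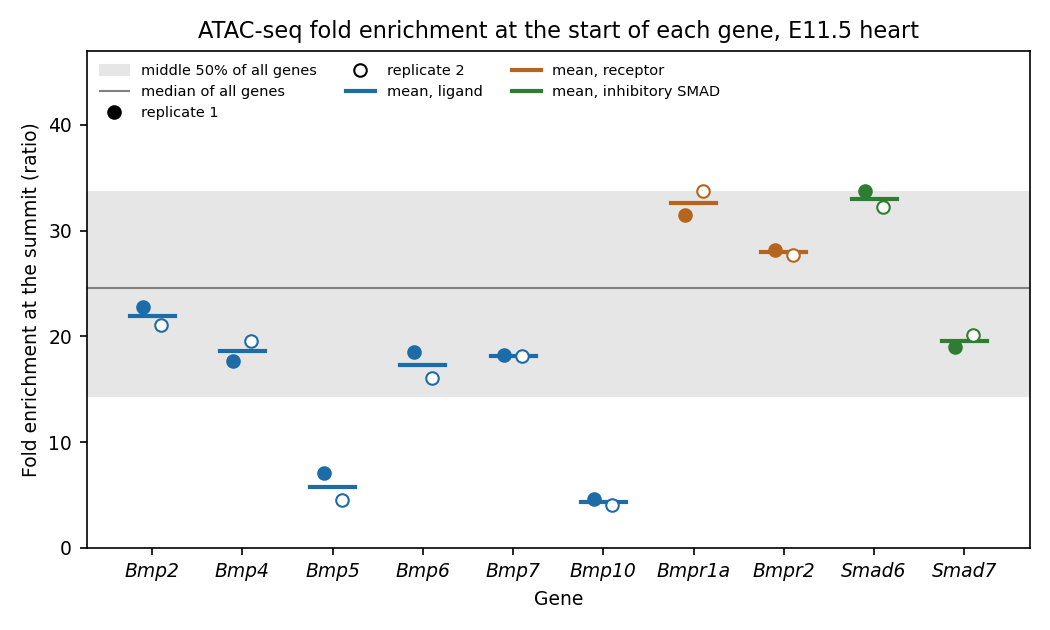
Fold enrichment (ratio, linear axis from 0) of the highest start region of each gene in replicate 1 (filled) and replicate 2 (open), with the mean as a bar coloured by role; the grey line and band are the median and the middle 50% of all protein-coding genes with a value. Both replicates of *Bmp5* and *Bmp10* lie below the band and the receptors and *Smad6* lie above the line.

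The starts of *Bmp5* and *Bmp10* were poor in CpG dinucleotides, as was that of *Bmp4*. The ratio of observed to expected CpG in the 1000 bases around the outermost start was 0.263 for *Bmp5*, 0.431 for *Bmp10* and 0.443 for *Bmp4*, and between 0.806 and 1.08 for the other members. Over all protein-coding genes, 44.2% of those with a ratio under 0.6 had a shared region at a start, with a median fold enrichment of 15.8, and 95.0% of those with a ratio of at least 0.6, with a median of 28.2. *Bmp5* and *Bmp10* lay below the lower quartile of the genes poor in CpG, 8.44. At *Bmp4* the region at this outermost start had a mean of 10.6, under their median of 15.8, and the higher region with 18.6 lay by the fourth start, where CpG was not counted. The part of CpG content in these values was not tested.

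The windows held from 9 to 48 regions. Of the 239 shared regions, 20 lay within 1 kb of a start of the gene itself, 24 at starts of other genes and 195 were distal. The distal regions were intergenic in 85 cases and in introns in 92, and 10 touched coding exons, 4 UTRs and 4 other exons. For 160 of the 239 the nearest protein-coding start belonged to the gene of the window. The median window held 17.5 regions, beside 13 over all protein-coding genes, and the median density was 6.39 per 100 kb, beside 5.41.

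*Smad7*, *Bmpr1a*, *Smad6* and *Bmp7* had the densest windows, with 21, 13.7, 13.4 and 13.2 regions per 100 kb (percentiles 99.6, 94.9, 94.5 and 94.1 among protein-coding genes). *Bmp2* and *Bmp5* had 6.64 and 6.15, and *Bmp10*, *Bmp4*, *Bmp6* and *Bmpr2* lay below the median of all genes with 5.27, 4.83, 4.22 and 2.85. The median percentile of the 10 genes was 59.3, and it was 73.2 with 50 kb on each side and 89.6 when only regions nearest to the gene's own starts were counted, so the standing of these genes depended on how a region was assigned. The distance to the next protein-coding gene that did not overlap the member ranged from 6.45 kb on 1 side of *Bmpr1a* to 934 kb on 1 side of *Bmp2*. Genes that overlap a member were passed over in these distances.

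**Figure D2:**
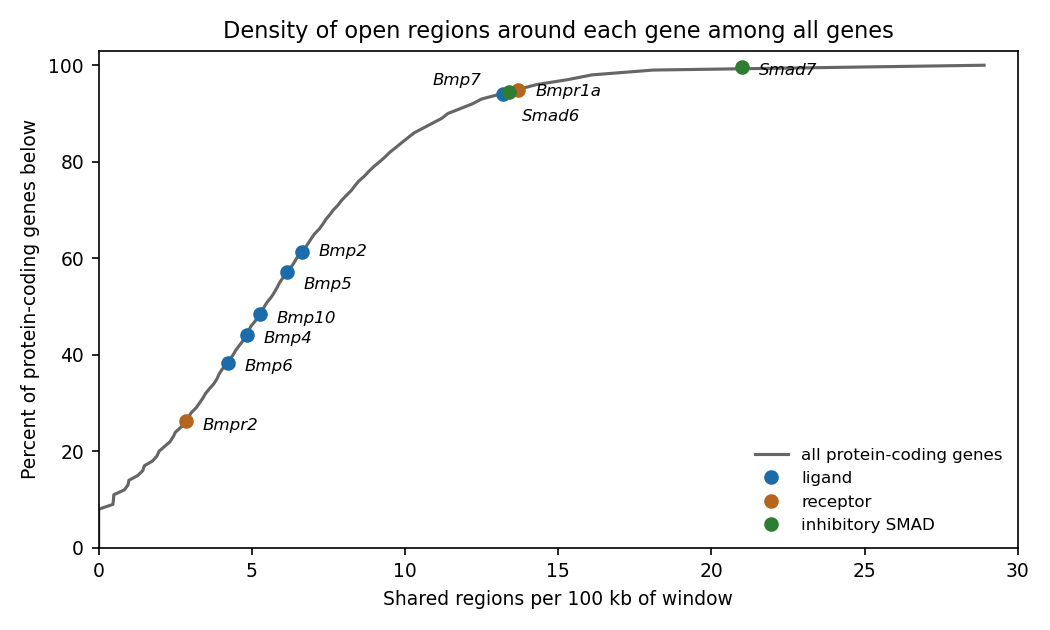
Shared regions per 100 kb of window (horizontal axis) against the percent of protein-coding genes with a lower density (vertical axis), with all genes as a line and the 10 genes as points coloured by role. *Smad7* stands at 21 per 100 kb, *Bmpr1a*, *Smad6* and *Bmp7* lie close together between 13.2 and 13.7, and the other 6 genes lie between 2.85 and 6.64.

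The distal regions of the 10 windows were about as high as distal regions elsewhere, with a median mean fold enrichment of 6.02 beside 5.86, and 17 of the 161 with a value in both replicates (10.6%) were above the 90th percentile of all distal regions. Among the 161, 3 exceeded 20 in both replicates, 1 upstream of *Smad6* and 2 in introns of *Ldb3* within the *Bmpr1a* window. The lowest of these 3, with a mean of 20.9, stood at the 98.1th percentile of all distal regions. With 100 kb on each side, the start was higher than the highest distal region at 6 genes, the distal region was higher at *Bmp5* and *Bmp10*, and *Smad6* and *Smad7* were not ordered. This depended on the window. With 200 kb on each side, *Bmpr1a* and *Bmpr2* alone kept a higher start, since the highest distal means rose to 24 for *Bmp2* (start 22), 22.5 for *Bmp4* (18.6), 18.6 for *Bmp6* (17.3) and 18.9 for *Bmp7* (18.1), none of them ordered against the start. At *Smad7* the distal region was then higher, with 33.8 beside 19.6, and at *Bmp10* the highest distal mean was 31.6 in place of 9.84, which is 2.87 above the start on the log2 scale. With fold enrichment taken wherever the summit lies, the order was lost at *Bmp6* (10.7 beside 17.3) and *Bmp7* (23.8 beside 18.1).

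Among the ligands, *Bmp2*, which acts in the formation of the endocardial cushions, had its only annotated start at chr2:133552159 in a shared region of 3273 bp, with fold enrichments of 22.8 and 21.1 in replicates 1 and 2. Its window held 14 regions, all of them nearest to *Bmp2*, and 13 were distal. The highest distal region lay at -53.0 kb (chr2:133498621-133499308, 688 bp, intergenic) with 12.8 and 8.80. The next 2, at -18.7 kb and 83.4 kb, had the same values, 7.33 and 6.54. Upstream regions were thus more numerous, 8 against 5 downstream.

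*Bmp4*, a ligand of the outflow tract and of mesodermal tissues, had 4 annotated starts in 2 clusters, all 4 with a shared region. The 3 upstream starts between chr14:46390535 and chr14:46390669 shared a region with 11.7 and 9.55. The fourth start (chr14:46387304) lay by a higher region with 17.7 and 19.6, so the downstream start carried the higher value in both replicates. Only this region gave *Bmp4* its place in the order of starts, and with the basic transcript set alone the mean fell to 10.6. Its window held 10 regions and 5 distal ones, none with a mean of at least 10. The leading 3, at -27.9 kb (chr14:46418391-46418887) with 8.15 and 6.03, at 98.5 kb with 7.33 and 6.03 and at -7.9 kb with 6.52 and 6.03, were tied in replicate 2 and are not ordered.

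*Bmp5*, a ligand with known overlap in function with BMP7, had a low region at its first start (chr9:75775364) with 7.06 and 4.53. Replicate 1 had 1 peak of 1452 bp there, which covered separate peaks of replicate 2 of 528, 244 and 200 bp. The last of these parts, at 1.1 kb, was distal and lay on a coding exon of *Bmp5*, with 3.27 in replicate 2. With a reciprocal overlap of 50% this start lost its shared region. Under that setting 9 genes had one at a start, beside 66.3% of all protein-coding genes. Far higher distal regions lay downstream, inside introns of the antisense non-coding gene *Gm26903*. The region at 204.9 kb (chr9:75979889-75980697) had 16.6 and 22.1 and that at 184.6 kb had 13.3 and 13.6, and both hold 2 GATA matches in the 200 bases searched, as 2.47% of all distal regions do. The first exceeded the start of *Bmp5* by 1.74 on the log2 scale. It is also lost with a reciprocal overlap of 50%, since its 809 bp in replicate 1 lie in a peak of 1752 bp in replicate 2, and the highest distal mean is then 13.4. With 50 kb on each side, or with only regions nearest to *Bmp5*, that mean was 8.82 in place of 19.3, which was still higher than the start. Both lie nearer to the start of *Hmgcll1* than to that of *Bmp5*, and the third region, at -99.0 kb in an intron of *Scg3*, had 12.5 and 10.3.

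*Bmp6*, a ligand of the same subgroup as BMP5 and BMP7, had 2 of its 3 starts in 1 region of 1980 bp with 18.5 and 16.1. Its 12 distal regions were spread over a gene body of 155 kb and its flanks. The highest, at 235.0 kb (chr13:38579762-38581072, intergenic, nearest to *Txndc5*), had 10.9 and 9.30. The region at -20.5 kb in an intron of the non-coding gene *Gm47990* had 9.78 and 10.3, and that at 237.9 kb had 9.51 and 8.30. These 3 were within the spread of each other. A region on a coding exon of *Bloc1s5* at 248.2 kb had 9.24 and 5.53.

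*Bmp7* combined a start of moderate height with many low regions. Its 2 starts shared a region of 2386 bp with 18.2 and 18.1. Of 36 regions in the window 31 were distal, 26 of them nearest to *Bmp7*, and the 24 with a value ranged from 3.68 to 8.48. The region at -42.8 kb in an intron of *Spo11* (chr2:172982854-172983341) had 8.42 and 8.55, that at 109.0 kb had 8.69 and 8.04, and that at 64.3 kb, on a coding exon of *Bmp7* itself, had 8.42 and 7.79. These 3 had the highest means and are not ordered, and in replicate 1 the region at 109.0 kb was the highest of them. A second exonic region, at 67.3 kb, had 5.43 and 4.02. A higher region, with 23.4 and 18.6, lay at 77.1 kb (chr2:172862406-172863821), intergenic and 520 bp from the annotated microRNA gene *Gm22773*, by which it counts as a region at another gene's start.

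*Bmp10*, the ligand of trabecular and atrial myocardium, had the lowest start of the set. The region at its only start (chr6:87428994) was 309 bp long with 4.62 and 4.02. The highest distal region within 100 kb of the gene lay at -4.8 kb (chr6:87424051-87424429), with 11.1 and 8.55, and exceeded the start by 1.19 on the log2 scale. This is the sequence with 2 GATA matches and a T-box match shown above. The other leading regions were at 14.5 kb with 8.69 and 5.78 and at -27.4 kb with 6.25 and 5.78. Of its 8 distal regions, 4 held a GATA match, beside 20.1% of all distal regions, and 0 a SMAD box, beside 46.8%, a contrast picked after the counts of every motif and gene were seen and not tested. A further 6 peaks of replicate 1, up to a fold enrichment of 5.16, had no counterpart in replicate 2, which had 0 peaks of its own in the window.

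The receptors had high starts and contrasting windows. *Bmpr1a*, the type I receptor needed for myocardial and cushion development, had 3 of its 4 starts in a region of 1984 bp with 31.5 and 33.7. Its window held 40 regions, but 11 were nearest to *Bmpr1a* itself, 13 to *Ldb3*, which encodes a Z-disc protein of striated muscle, and 7 to *9230112D13Rik*. The 3 highest distal regions all lay in *Ldb3*. The intronic region at -70.9 kb (chr14:34573284-34574639) had 26.1 and 21.9, the intronic region at -46.1 kb had 21.7 and 20.1, and the region on a coding exon at -41.4 kb had 19 and 15.8. *Ldb3* held 3 further distal regions on coding exons, at -52.5 kb with 10.1 and 7.29, at -67.1 kb with 14.9 and 11.6, and at -69.7 kb, where 4.02 was the value of replicate 2 and replicate 1 had no summit. The region at -67.1 kb was 3663 bp long with summits 2509 bp apart in the replicates, so its values belong to different sites within it. A region on a coding exon of *Opn4* at -92.7 kb had 7.33 and 6.28. Among the 10 distal regions nearest to *Bmpr1a* the highest was at -5.0 kb with 9.24 and 13.1.

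*Bmpr2*, the type II receptor, had the sparsest window, with 9 regions, 5 of them distal and 4 nearest to its own start. Its first start (chr1:59763400) lay in a region of 2554 bp with 28.2 and 27.7. The highest distal region was in an intron of *Bmpr2* at 70.5 kb (chr1:59833756-59834064) with 13.0 and 9.80, and its sequence holds 3 SMAD boxes. The second, at 41.1 kb, had 9.51 and 6.54, and the third, at -37.6 kb, had 5.98 and 5.03. Regions also lay at the starts of the neighbouring genes *Nop58* and *Fam117b*.

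Both inhibitory SMADs had dense windows. *Smad6*, which competes with SMAD4 and blocks BMP receptors, had a shared region at each of its 3 starts, and the highest, of 1818 bp, had 33.7 and 32.2. Its replicate 1 summit lay at -1015 bp from the outermost start. The third start (chr9:64016987) lay by a lower region with 13.0 and 13.3. Of 36 regions in the window, 25 were nearest to *Smad6* and 20 were upstream of the gene.

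The highest distal region of all 10 windows lay at -23.3 kb from *Smad6* (chr9:64044990-64045820, 831 bp, intergenic), with 34.8 and 35.7 and summits 1 bp apart in the replicates. It stood at the 99.9th percentile of distal regions and was as high as the *Smad6* start within the spread (0.10 on the log2 scale). Its sequence is the one with 4 SMAD boxes shown above. Next came -62.9 kb in an intron of *Scarletltr* with 16.8 and 20.4 and -38.3 kb with 15.8 and 17.1. A region at -28.1 kb, over the start of the lincRNA *1110036E04Rik*, had 23.4 and 24.1.

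*Smad7*, which blocks both BMP and TGF-β receptors, had more regions than any other member. All 48 regions of its window were nearest to *Smad7*, 43 were distal, and they lay on all sides, 15 upstream, 14 in the gene body and 19 downstream. Each of its 5 starts had a shared region, the highest with 19 and 20.1 and the fifth with 6.52 and 5.03. Distal regions at 127.7 kb in an intron of *Ctif* and at -24.6 kb had near-equal values, 21.5 and 16.3 for the first and 21.7 and 15.8 for the second. The next, at -47.8 kb, had 18.7 and 14.3, and 7 distal regions had a mean of at least 10. A region on a coding exon of *Ctif* at 67.4 kb had 7.88 and 8.30.

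**Figure D3:**
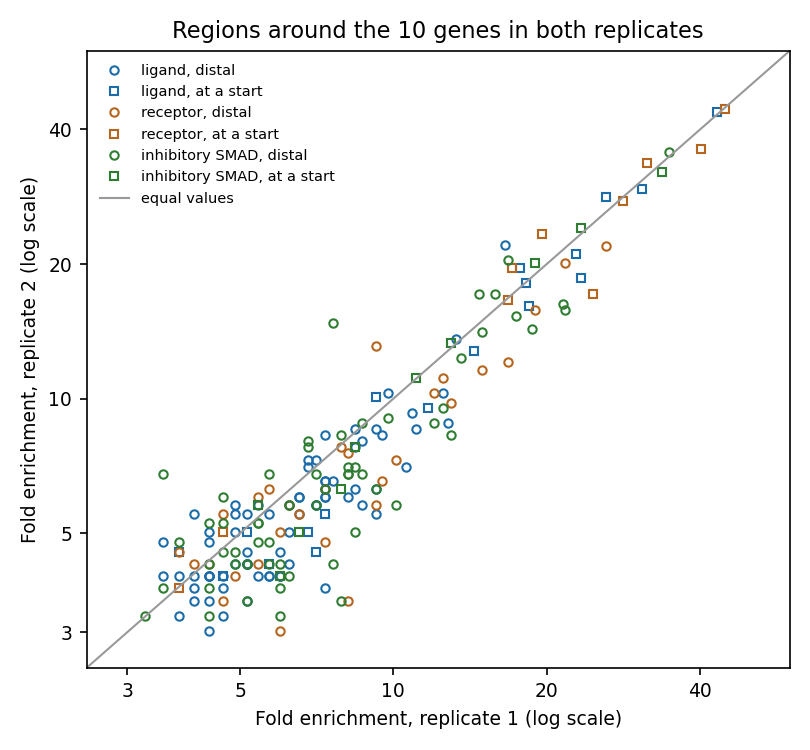
Fold enrichment of the 199 regions with a value in both replicates, replicate 1 against replicate 2, both axes on a log scale, coloured by the role of the gene and with squares for regions at any annotated start. Points follow the line of equal values, with a median ratio of replicate 2 to replicate 1 of -0.19 and an SD of 0.32 (log2), and the spread is widest below 10.

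The replicates also differed in what they called. The windows held 279 peaks of replicate 1 and 262 of replicate 2, of which 57 and 33 had no overlap in the other. The highest of these had a fold enrichment of 7.04, in replicate 2, in the windows of *Bmpr2* and *Smad7*. With a q-value of at most 1e-10 in each replicate, 113 regions were left. At this limit 8 genes kept a region at a start, beside 62.6% of all protein-coding genes, and *Bmp5* and *Bmp10* lost theirs.

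Motif matches in the distal regions were close to those of distal regions elsewhere for most motifs. In the 200 bases around the summit, searched on both strands, GATA letters (AGATAA) were found in 41 of 195 regions (21%), beside 20.1% of all distal regions, and T-box letters (AGGTGT) in 8.72%, beside 9.04%. TEAD letters (CATTCC) were found in 39 of 195 regions (20%), beside 16.4%, and NKX letters (CAAGTG) in 10.8%, beside 14.5%. MEF2 letters (CTA and TAG with 4 bases between) were present in 2.05% of regions, beside 4.86%. These are motifs of factors that act in cardiac cells, and no test was made of the differences. A search of 100 bases gave fewer matches in both sets of regions for GATA, T-box, TEAD and NKX letters. MEF2 letters were still in 4 of the 195 regions (2.05%), beside 2.48% of all distal regions, so their difference depended on the bases searched. GATA letters were then in 25 of the 195 regions (12.8%, beside 11.6% of all distal regions), T-box letters in 8 (4.1%, beside 4.55%), TEAD letters in 17 (8.72%, beside 8.75%) and NKX letters in 8 (4.1%, beside 7.41%).

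SMAD letters were likewise near the background. The SMAD box (CAGAC) occurred in 98 of 195 regions (50.3%), beside 46.8% of all distal regions, and the GC-rich SMAD letters (GGCGCC) in 3.08%, beside 2.42%. The composite of both with 5 bases between, GGCGCCNNNNNGTCT, was found in 0 of 195 regions, beside 0.0229%, and contains the GC-rich letters and part of the SMAD box. E-box letters (CANNTG), of which the NKX letters are 1 form, occurred in 64.6%, beside 69.1%. With 100 bases searched, the SMAD box was in 56 regions (28.7%, beside 27.3%) and E-box letters in 76 (39%, beside 44.2%). The GC-rich SMAD letters were then in 5 regions (2.56%, beside 1.29%), a difference that rests on few regions and was not tested. By role, GATA letters were in 23 of 85 ligand regions, 5 of 38 receptor regions and 13 of 72 inhibitory SMAD regions, and NKX letters in 13, 6 and 2. SMAD boxes were in 36, 24 and 38 of them, and E-box letters in 63, 26 and 37. These 4 motifs were picked for this split after their counts were seen. The regions were richer in G and C than all distal regions, with a median of 53.5% beside 49.5%.

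**Figure D4:**
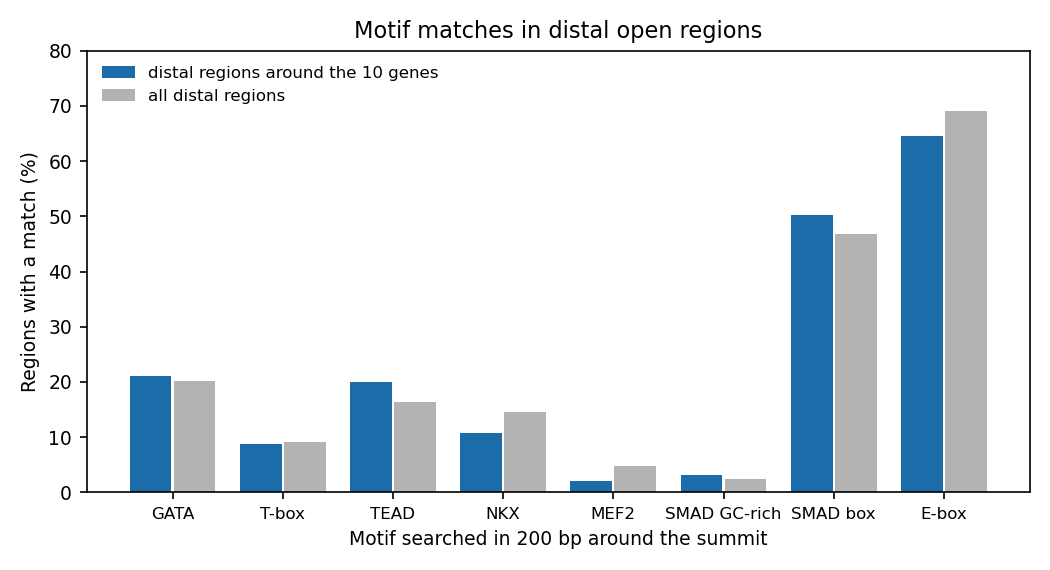
Percent of distal regions with a match to each motif in the 200 bases around the summit (bars from 0), for the 195 regions around the 10 genes (blue) and all 74141 distal regions (grey). The paired bars differ by less than 5 percentage points for each of the 8 motifs shown.

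The other genes of the pathway were examined in the same way. Of 46 further genes, 40 had a shared region at a start, beside 67.6% of protein-coding genes. Those without one were the ligands *Bmp15*, *Gdf2* and *Gdf5*, the endothelial receptor *Acvrl1*, the co-receptor *Hfe2* and the extracellular antagonist *Cer1*. By role, regions were present for 5 of 8 other ligands, 8 of 10 other receptors and co-receptors, 4 of 4 signalling SMADs, 9 of 10 extracellular inhibitors, 4 of 4 intracellular regulators and 10 of 10 target genes. The median start value was 21.3 for the further genes and 19.1 for the 10 members. *Bambi*, a decoy receptor, had 46.2 and 45.5 and *Eng*, an endothelial co-receptor, 5.98 and 4.02. The target *Id1* had 22.5 and 23.4 at its start and 54 regions in its window.

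As a check of the tissue, all 26 markers of heart cells had a shared region at a start, among them 6 of 6 for cardiomyocytes, 6 of 6 for endocardium and endothelium, 5 of 5 for epicardium, 5 of 5 for cushion mesenchyme and 4 of 4 for blood. Of 12 markers of tissues outside the heart 7 had one and 5 did not, and over all protein-coding genes the share was 67.6%. The start values of these 7 ran from 4.29 for *Cdx2* to 20.2 for *Pax6*, and those of the heart markers from 4.33 for *Pecam1* to 27.5 for *Snai2*. Expression was not measured.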

How the data were processed

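ATAC-seq peak lists of 2 replicates (1 group, assigned from the sample titles) were analysed. The authors used Trim Galore 0.6.6 and cutadapt for trimming, Bowtie2 2.4.2 for mapping single-end reads to mm10, SAMtools 1.12 for removing duplicates and low-quality alignments, and MACS2 for peak calling per replicate, so sites in repeated sequence are underrepresented. The deposited fold enrichment is a ratio at the summit over a genome-wide background, the −log10 p and −log10 q columns as deposited belong to the same summit, and the deposited score is a whole-number form of the −log10 q. That the background is genome-wide comes from the published methods, which the lists do not match in full: their largest p-values (0.000476 and 0.00104) and their shortest peaks fall at other values than the stated limit and extension. No read totals were given, so depth is unknown and no counting interval was computed.

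Peaks were intersected with bedtools 2.31.1 (at least 1 bp), trimmed to the common part and merged. The mean of both replicates was taken only where both summits lie in the region, a choice made after the lists were seen, since a peak many kb long otherwise lent its value to a neighbour. Starts came from GENCODE M21 and bases from the GRCm38 reference, and distances run from the outermost start to the replicate 1 summit, or to the middle of the region where that summit lies outside. Motifs were searched in 200 bases around the same point. Percentiles are among protein-coding genes or distal regions. No test was made, since there is 1 group. The members and gene lists were chosen with earlier results of these data known. Named in the text by rule were all members, their highest start region and 3 highest distal regions, regions on coding exons, starts without a region and pathway genes without one, and other regions were named after their values were seen. Some marker and neighbouring genes are not reported here. On simulated data the overlap code found 3452 of 3452 pairs made to overlap among 5000 peaks per list. Scripts ran under Python 3.11.15 with pandas 2.3.3, NumPy 2.4.6, pysam 0.24.0 and Matplotlib 3.10.9. Alternatives were limits on p and q, a reciprocal overlap, each replicate alone, other distances, the basic transcript set, assignment by nearest start, 100 bases for motifs and, added after the data were seen, fold enrichment wherever the summit lies.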

Additional observations from a re-analysis of the deposited data

How the results depend on the processing

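Of 97 recomputed summary values, 79 stayed within 1.5 times the count or within the spread between replicates, and 18 did not. A q-value limit of 1e-10 left 113 regions in the windows, 83 distal ones, a median of 8.5 per window and 62 distal regions with a motif other than the E-box (152 as reported). A flank of 200 kb gave 365 regions, 297 distal ones, a median of 32.5 per window, a median percentile of 67.3 and a median highest distal fold enrichment of 23.2, and a flank of 50 kb a median midway between 11 and 12 regions per window (those of *Bmp6* and *Bmp5*, over 1.5 times below 17.5) and a percentile of 73.2. Counting only regions nearest to the gene's own starts gave a median of 11 per window and a percentile of 89.6. A reciprocal overlap of 50% gave a percentile of 64.0, and each replicate alone gave 61.0 to 63.3, against 59.3 as reported, although the replicates alone differed by an SD of only 1.56. The basic transcript set, which counts only a part of the annotated starts, left 14 open starts of members in place of 23. Over all protein-coding genes, 65.2% of the basic starts were open, beside 58% of all annotated starts. With the value of an overlapping peak taken wherever its summit lies, the median highest distal fold enrichment was 15.2 in place of 11.1. The start stayed higher than the highest distal region at 6 genes under 8 of the 10 alternatives that keep both replicates, at 2 genes with a flank of 200 kb and at 4 with the value taken wherever the summit lies. The causes were not tested beyond the construction of each alternative. Each replicate alone moved no other summary value outside these bounds. For single genes and motifs, 56 values moved and 264 did not. *Bmp10* had 17 regions in replicate 1 alone and 11 as reported, and the mean at the start of *Bmp5* was 4.78 to 7.06 in each replicate alone. No paired analysis was possible because both replicates belong to 1 group and nothing was compared between groups. Peak lists hold no read totals, so a site without a peak was not detected at this depth.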
